A study of Danio rerio with 10 samples.

Results

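This comparison set whole cardiac ventricles of *il11ra* mutant zebrafish against those of wild-type siblings, 96 hours after cryoinjury (hpci), and described every gene with enough signal rather than a few chosen ones. Of the 23511 genes listed for ventricles, 17411 had a mean of at least 10 normalized counts over the 4 libraries and are the members described here. Both tables of the study together list 25029 genes. The study sequenced mRNA from 10 libraries, 4 of ventricles and 6 of amputated caudal fins, to ask which genes depend on Il-11 signaling during regeneration. The fin libraries, used here only for values set beside the ventricles, were 3 of *il11ra* mutants and 3 of wild-type siblings. Each fin library came from 1 fish, 24 hours after amputation. The ventricle groups were 2 libraries of adult fish carrying the CRISPR-Cas9 allele *il11ra* bns251 and 2 libraries of adult wild-type siblings, all of strain Tüb/AB and all cryoinjured with a probe cooled in liquid nitrogen. Each library pooled the ventricles of 2 fish and held injured and uninjured tissue together. The mutation was present in every cell of the fish, so the libraries do not separate cell types. Fewer cells of a type and less RNA per cell cannot be told apart in such samples.

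Interleukin-11 is a cytokine of the interleukin-6 family that binds its own receptor, Il11ra, and then the shared co-receptor Il6st, also called gp130. The pair activates Jak kinases, which phosphorylate the transcription factor Stat3, and Stat3 in turn induces feedback inhibitors such as Socs3. In the zebrafish heart, cryoinjury kills muscle at the apex of the ventricle, and the wound is then filled by immune cells, fibroblasts and a provisional matrix before new cardiomyocytes replace it.

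A normalized count is the number of reads on a gene divided by a size factor for its library. The libraries summed to 10968602 to 13273996 normalized counts, and 9.67% to 12.6% of these lay on the mitochondrial chromosome. Mutant library 1 stood apart from the others. It was alone at 1 end of the first principal component, which carried 49.4% of the variance, and the difference between the mutant libraries had an SD of 0.643 on the log2 scale, against 0.513 between the wild-type libraries. The median without it is given for the main lists.

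The defining genes of heart muscle were abundant in every library. The cardiomyocyte markers summed to 501521 and 913852 normalized counts in mutant libraries 1 and 2, against 941627 and 839074 in wild-type libraries 1 and 2. The low value was that of mutant library 1 alone. Myosin light chain *myl7*, for example, had 92554 and 161400 normalized counts in mutants and 203695 and 148952 in wild type. The level of the thrombocyte markers, the median over 6 genes, was highest in the same library, at 1.36 and -0.65 in mutants and -0.22 and -0.24 in wild type, with 1 gene lower and 1 higher without overlap. The integrin *itga2b* had 1098 and 237 normalized counts in mutants and 339 and 337 in wild type, and the glycoprotein *gp1bb* had 1153 and 190 against 247 and 323. The sum over the list ran differently, with 22939 and 26346 in mutants and 46215 and 57355 in wild type. Outside mutant library 1, most of it was the fibronectin gene *fn1b*, a listed member that is also among the matrix genes below. *fn1b* had 11119 and 22405 normalized counts in mutants and 43357 and 53796 in wild type. Macrophage markers summed to 18601 and 12141 in mutants and 13461 and 13993 in wild type. The level of endocardium and endothelium markers was -0.21 and -0.06 in mutants and 0.10 and 0.13 in wild type. That of erythrocyte markers was 0.23 and 0.01 in mutants and -0.08 and -0.17 in wild type. Of the 12 listed lymphocyte markers 3 reached the minimum mean, and of the 8 liver markers 1 did, the transferrin gene *tfa* with 446 and 1122 normalized counts in mutants and 1363 and 1344 in wild type. The part of this makeup in the results below was not tested beyond leaving the library out.

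**Figure D1:**
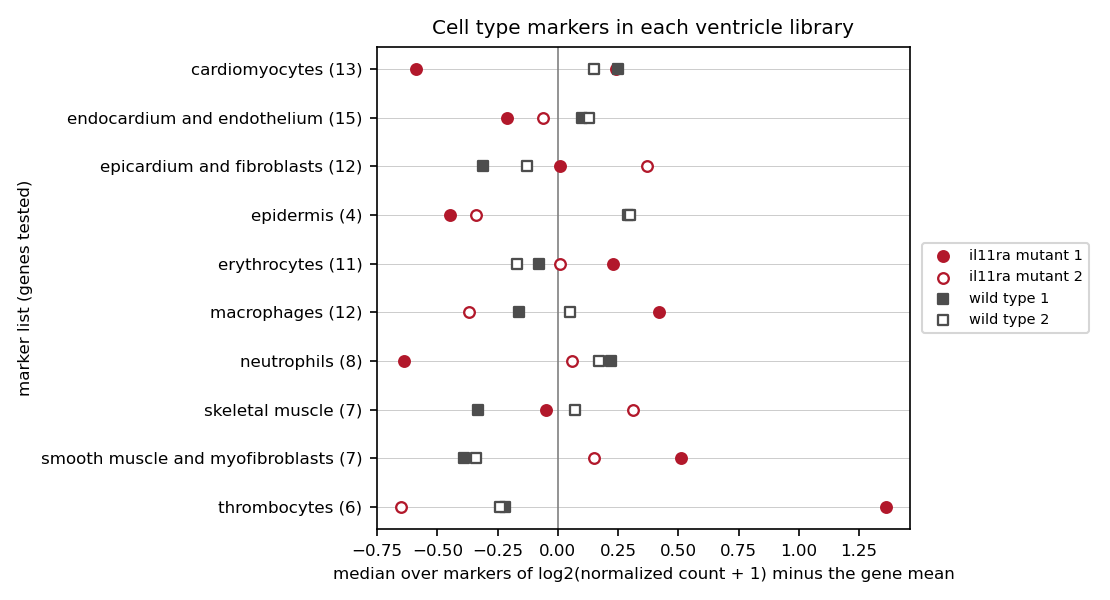
Level of each cell type marker list in the 4 ventricle libraries, as the median over its tested genes of log2(normalized count + 1) minus the gene's mean over the libraries (x axis), with the number of tested genes in brackets. Circles are mutant and squares wild-type libraries. Mutant library 1 (filled circle) lies lowest for cardiomyocyte markers at -0.59 and highest for thrombocyte markers at 1.36. Both mutant libraries lie above both wild-type libraries for epicardium and fibroblasts, for smooth muscle and for erythrocytes. They lie below both for endocardium and endothelium, for epidermis and for neutrophils.

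Across the 17411 genes no difference passed the threshold. The limma fit with Benjamini-Hochberg adjustment called 0 genes (0%) at 0.05, and its smallest adjusted p was 0.0745. At an unadjusted p under 0.05, 638 genes (3.66%) were lower and 535 (3.07%) higher in mutants. In 2970 genes (17.1%) both mutant libraries lay below both wild-type libraries, and in 3174 (18.2%) both lay above them. Such genes are called without overlap here, and each list below is read against these shares. The unadjusted counts became 1237 lower and 1331 higher without mutant library 2, 282 and 226 without wild-type library 1, and 231 and 213 without wild-type library 2. The median log2 fold change of all genes was 0.01.

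The mutated gene, *il11ra* (ENSDARG00000026736), lies on chromosome 10 of GRCz11 from 13305610 to 13396720 on the minus strand. It had 38 and 23 normalized counts in mutants, against 107 and 189 in wild type. Its transcript was thus lower in both mutant libraries, by a log2 fold change of -2.23 with a standard error of 0.39, although the exact two-sided permutation test gave 0.33, the smallest p that this design allows. Among genes starting within 2 Mb of it, 7 of 26 were lower and 3 higher without overlap. Its neighbours included *musk*, a muscle receptor kinase with 38 and 36 normalized counts in mutants and 52 and 62 in wild type, and *cntfr*, a receptor of the same cytokine family, with 145 and 93 in mutants and 91 and 78 in wild type. Within 5 Mb, 18 of 111 were lower and 26 higher, close to the shares of all genes.

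The cytokine pathway that Il11ra belongs to held genes in both directions. Of 42 tested gp130-family cytokines and receptors, Jak, Stat and Socs genes, 12 were lower and 9 higher without overlap. At an unadjusted p under 0.05 in the limma fit the list leaned lower, with 9 lower and 1 higher. Of all genes, 3.66% were lower and 3.07% higher at that threshold. The study also reported impaired Jak-Stat pathway activation from these libraries, so the direction of this family is not independent evidence. The list median was 0.02, and -0.27 without mutant library 1. The genes named in the rest of this paragraph were chosen after their values were seen, apart from *crlf1a*. The ligand genes did not follow genotype: *il11a* had 140 and 40 normalized counts in mutants and 11 and 121 in wild type, and *il11b* had 167 and 9 against 18 and 34. Each was spread more widely within a genotype than between genotypes. The co-receptor gene *il6st* had 1503 and 1409 normalized counts in mutants, against 2166 and 2920 in wild type. The leukemia inhibitory factor receptor genes were lower as well, with 62 and 69 against 89 and 162 for *lifra* and 256 and 174 against 331 and 401 for *lifrb*. The shared co-receptor and both of these receptors were therefore without overlap and lower in mutants. The receptor gene *cntfr*, given above as a neighbour of *il11ra*, was without overlap and higher. Apart from it, no gene that was higher without overlap is named in this paragraph. The named genes thus do not show the balance of the list. *crlf1a*, encoding a secreted receptor-like partner of these cytokines, had 50 and 36 normalized counts in mutants and 187 and 229 in wild type (log2 fold change -2.26, standard error 0.26, limma adjusted p = 0.158). *stat3* had 683 and 739 in mutants and 963 and 1440 in wild type. Its feedback target *socs3a* had 2631 and 2804 in mutants and 6000 and 8417 in wild type (log2 fold change -1.39, standard error 0.24, limma adjusted p = 0.295). The Jak genes were closer together, with 2236 and 1924 normalized counts of *jak1* in mutants against 2377 and 2998 in wild type, and 869 and 626 of *jak2a* against 733 and 640.

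The genes with the smallest unadjusted p on the lower side, beyond those labelled in the study's figures, included several known to be induced by glucocorticoid hormones. *klf9*, a zinc finger transcription factor of that kind, had 106 and 134 normalized counts in mutants and 799 and 840 in wild type (log2 fold change -2.77, standard error 0.20, limma adjusted p = 0.0745). *fkbp5*, a co-chaperone of the glucocorticoid receptor, had 2035 and 1543 against 10259 and 9265 (log2 fold change -2.46, standard error 0.23, limma adjusted p = 0.124). *nr1d2a*, a repressor in the circadian clock, had 812 and 833 against 3472 and 3022. In all of these the mutant libraries lay close together and far below the wild-type ones. That follows from the choice of genes by small unadjusted p without overlap, and is not a separate result. *glulb*, encoding glutamine synthetase, had 497 and 699 normalized counts in mutants and 2235 and 2454 in wild type. *clu*, encoding the extracellular chaperone clusterin, had 2396 and 3057 against 10684 and 15847. *ptx3a*, a pentraxin of innate immunity, had 340 and 408 against 1379 and 1882. The others on this side were the alkylation repair gene *alkbh3*, *rasgef1bb*, *hif1al*, a relative of the hypoxia-inducible factors, the ubiquitin ligase gene *peli1a* and *PAMR1*, which had 38 and 42 normalized counts in mutants and 193 and 376 in wild type.

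On the higher side, *mycn*, a growth-promoting transcription factor of the Myc family, had 284 and 248 normalized counts in mutants and 70 and 61 in wild type (log2 fold change 2.01, standard error 0.21, limma adjusted p = 0.141). *twist1b*, a transcription factor of mesenchymal cells, had 331 and 321 against 91 and 141. The retinoic acid binding protein gene *crabp2a* had 374 and 258 against 86 and 105. Several of these genes make or modify extracellular matrix. *matn4*, encoding the adaptor protein matrilin 4, had 517 and 920 normalized counts in mutants and 185 and 188 in wild type, and *has1*, a hyaluronan synthase, had 292 and 231 against 103 and 106. *loxl2b*, which cross-links collagen, had 1949 and 2048 against 958 and 1085, and *col8a1b*, a short-chain collagen, had 365 and 469 against 90 and 151. *csgalnact1a*, which starts chondroitin sulfate chains, had 212 and 229 against 108 and 94. The remaining genes of this group were *enc3*, *phex*, the class I major histocompatibility gene *mhc1uba* and *cpamd8*, a relative of complement C3 and alpha-2-macroglobulin, which had 1911 and 1348 normalized counts in mutants and 428 and 564 in wild type.

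**Figure D2:**
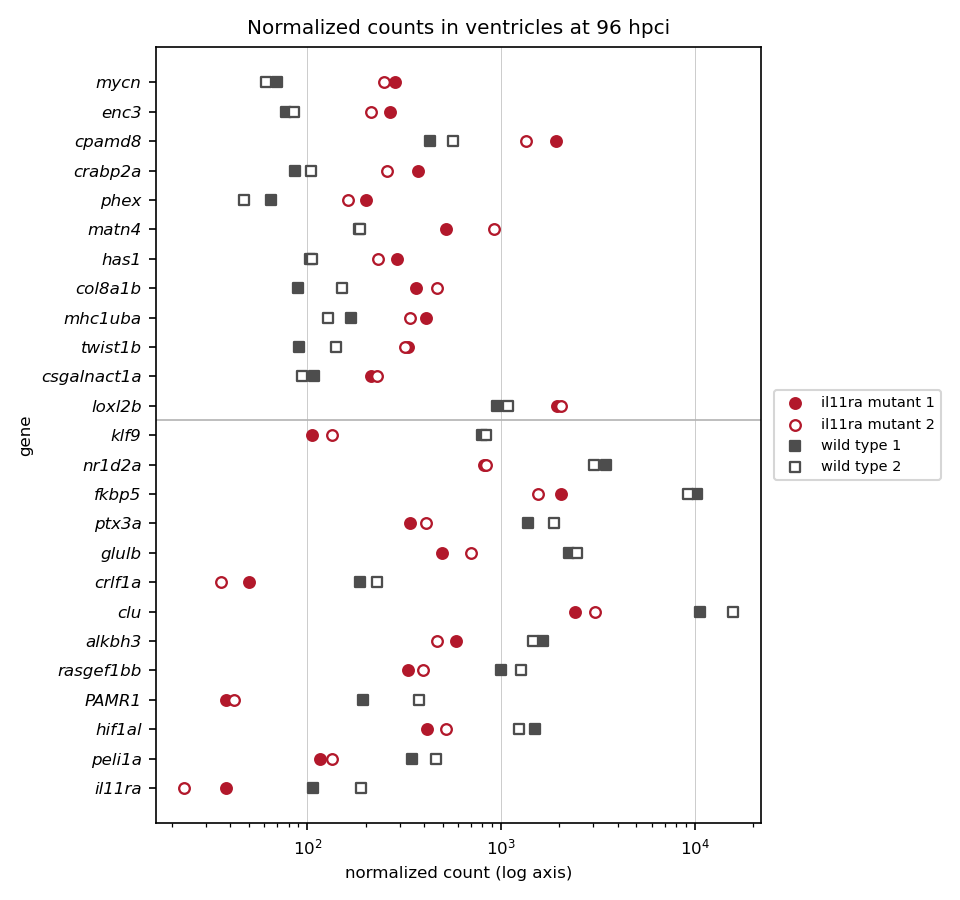
Normalized counts (x axis, log scale) of the 12 higher and 12 lower genes with the smallest unadjusted p outside the study's figure labels, and of *il11ra*, in each of the 4 ventricle libraries. Circles are mutant and squares wild-type libraries; the genes were picked for not overlapping, and *klf9* shows the wide gap between 106 and 134 in mutants and 799 and 840 in wild type.

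Complement, the blood and tissue cascade that tags and lyses targets, was lower in some of its early and terminal components. Of 16 tested complement genes, 8 were lower and 0 higher without overlap, and 7 were lower at an unadjusted p under 0.05. The median log2 fold change was -0.85, and it was -0.88 without mutant library 1. The pore component gene *c7a* had 1513 and 2044 normalized counts in mutants and 5490 and 7064 in wild type. The neighbouring pore component *c6* is annotated under a pair of gene identifiers, which had 2566 and 4272 against 11474 and 12791, and 1274 and 1713 against 4010 and 5316. *C4B*, of the classical pathway, had 293 and 216 in mutants and 2010 and 2116 in wild type (log2 fold change -3.03, standard error 0.21, limma adjusted p = 0.0745). Reads may be split between the *c6* entries if their sequences are alike, which was not compared. Both *c6* entries were lower in both mutant libraries. The protease gene *c1s* had 265 and 170 against 352 and 486, while *c1qa*, expressed by macrophages, overlapped with 996 and 450 in mutants and 567 and 622 in wild type. The factor B-like gene *cfbl* had 760 and 689 in mutants and 715 and 682 in wild type. The lower genes were thus those of C4, C6, C7, C1s, factor H and the C3 copy *c3a.1*, and not those of C1q, factor B, factor D, properdin or the C3 copy *c3a.4*. This family contains genes labelled in the study's figures, so its direction is not independent of them.

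The list of glucocorticoid responsive genes gave a similar count. Of 13 tested, 8 were lower and 1 higher without overlap, 6 of them lower at an unadjusted p under 0.05, with a median of -0.48. Beside *klf9* and *fkbp5*, the lower members were the clock genes *per1a* and *per1b*, the kinase gene *sgk1*, *tsc22d3*, the cortisol-inactivating enzyme gene *hsd11b2* and the receptor gene *nr3c1*. *per1a* had 19 and 16 normalized counts in mutants and 63 and 84 in wild type. *sgk1* had 1372 and 1021 against 1901 and 2083. *nr3c1*, encoding the glucocorticoid receptor itself, had 772 and 1066 against 1193 and 1178. Other members did not share the direction: *pdk4* had 1252 and 1752 in mutants and 1390 and 1632 in wild type, and *dusp1*, the single higher member, had 1605 and 1636 against 1450 and 1204. The median without mutant library 1 was -0.58. *klf9* and *fkbp5* were already named above for their small unadjusted p, and the list was chosen with earlier results of these data known. Its count is thus not independent of those genes.

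Clock genes overlap with that list in *per1a* and *per1b*, and 11 of 37 were lower and 3 higher without overlap, 9 of them lower and 1 higher at an unadjusted p under 0.05. The median was -0.20, and -0.04 without mutant library 1. *nr1d1*, the paralogue of *nr1d2a*, had 94 and 98 normalized counts in mutants and 191 and 136 in wild type. *tefb*, a transcription factor of the clock output, had 181 and 195 against 306 and 357. Other clock genes overlapped, among them *arntl1a*, with 277 and 373 in mutants and 314 and 326 in wild type, and *per2*, with 645 and 813 against 615 and 679. *cry5* was the gene with the smallest unadjusted p in the other direction, with 117 and 60 in mutants and 44 and 41 in wild type.

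The proteins of the cytosolic ribosome gave the most uniform list. Of 84 genes, 76 were lower and 0 higher without overlap, where 17.1% of all genes were lower. The differences were small, with a median log2 fold change of -0.32, which became -0.19 after quantile normalization. At an unadjusted p under 0.05 in the limma fit, 4 of the 84 were lower, where 3.66% of all genes were. *rpl29* had 2365 and 2326 normalized counts in mutants and 3386 and 3654 in wild type. *rplp2*, of the stalk that recruits elongation factors, had 3064 and 3526 against 4860 and 4763. *rps2* had 18555 and 18244 against 24613 and 25004. The pattern was also present without mutant library 1. Mutant library 2 then lay below both wild-type libraries in 81 of 84 genes, against 33.2% of all genes, and the median was -0.41. That count covers genes within a single mutant library, which are not replicates of the genotype. The KEGG term Ribosome, which shares 78 of its 122 tested genes with this list, had 82 lower and 7 higher and a median of -0.28, which was -0.36 without mutant library 1. Mitochondrial ribosomal proteins did not share it, with 11 of 74 lower and 13 higher and a median of 0.03. Translation factors lay between, with 27 of 74 lower and 11 higher (median -0.10), and nucleolar and ribosome assembly genes had 10 of 61 lower and 2 higher (median -0.08, and -0.19 without mutant library 1).

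Genes of DNA replication and mitosis were higher. Of 107 tested, 66 were higher and 2 lower without overlap, where 18.2% of all genes were higher, and 30 were higher at an unadjusted p under 0.05. The median log2 fold change was 0.71. The library levels show that mutant library 1 set most of this height: the list level was 0.77 and -0.05 in mutants and -0.50 and -0.18 in wild type. Without that library the median was 0.28, and mutant library 2 alone lay above both wild-type libraries in 67 of 107 genes, against 34.4% of all genes. *mcm3*, a subunit of the replicative helicase, had 579 and 379 normalized counts in mutants and 252 and 272 in wild type. The sliding clamp gene *pcna* had 2457 and 1357 against 981 and 1208. The proliferation marker *mki67*, in contrast, overlapped, with 1530 and 699 in mutants and 481 and 716 in wild type. The mitotic kinase gene *cdk1* overlapped too, with 491 and 273 against 218 and 298. *cdca7a* had 231 and 157 in mutants and 91 and 84 in wild type, and *gins4*, of the replicative helicase complex, had 100 and 74 against 41 and 46. In the other direction, *orc6* of the origin recognition complex had 91 and 64 against 136 and 104. The median levels of macrophage and thrombocyte markers were also high in mutant library 1, except that the thrombocyte list member *fn1b* was low there, and their part in the height of this list was not tested.

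Among the 115 KEGG terms with at least 20 tested genes, those with the highest medians were of the same kind. DNA replication (25 of 35 higher and 3 lower, median 0.61), Mismatch repair (10 of 22 higher, median 0.44) and Homologous recombination (12 of 25 higher, median 0.44) led, followed by Cell cycle (51 of 127 higher and 11 lower, median 0.28). These terms share genes, since 15 of the 22 genes of Mismatch repair are also in DNA replication. The polymerase subunit *pold2*, listed in several of them, had 132 and 107 normalized counts in mutants and 70 and 66 in wild type. *pole*, the catalytic subunit of the leading-strand polymerase, had 294 and 175 against 129 and 117, and the recombination helicase gene *rad54l* had 118 and 93 against 64 and 67. The D-type cyclin *ccnd2a* had 428 and 411 in mutants and 244 and 266 in wild type, whereas *gadd45ga*, a stress-induced inhibitor of growth, had 1809 and 2908 against 5150 and 4250. Base excision repair had 15 of 36 higher and 6 lower (median 0.19) and included *parp1*, with 475 and 453 against 322 and 331, and, in the other direction, *parp4*, with 478 and 483 against 972 and 1329. The Fanconi anemia pathway had 18 of 44 higher and 3 lower (median 0.22). Without mutant library 1 these medians were 0.28 for DNA replication, 0.17 for Mismatch repair, 0.15 for Homologous recombination, 0.09 for Cell cycle, 0.13 for Base excision repair and 0.10 for the Fanconi anemia pathway.

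**Figure D3:**
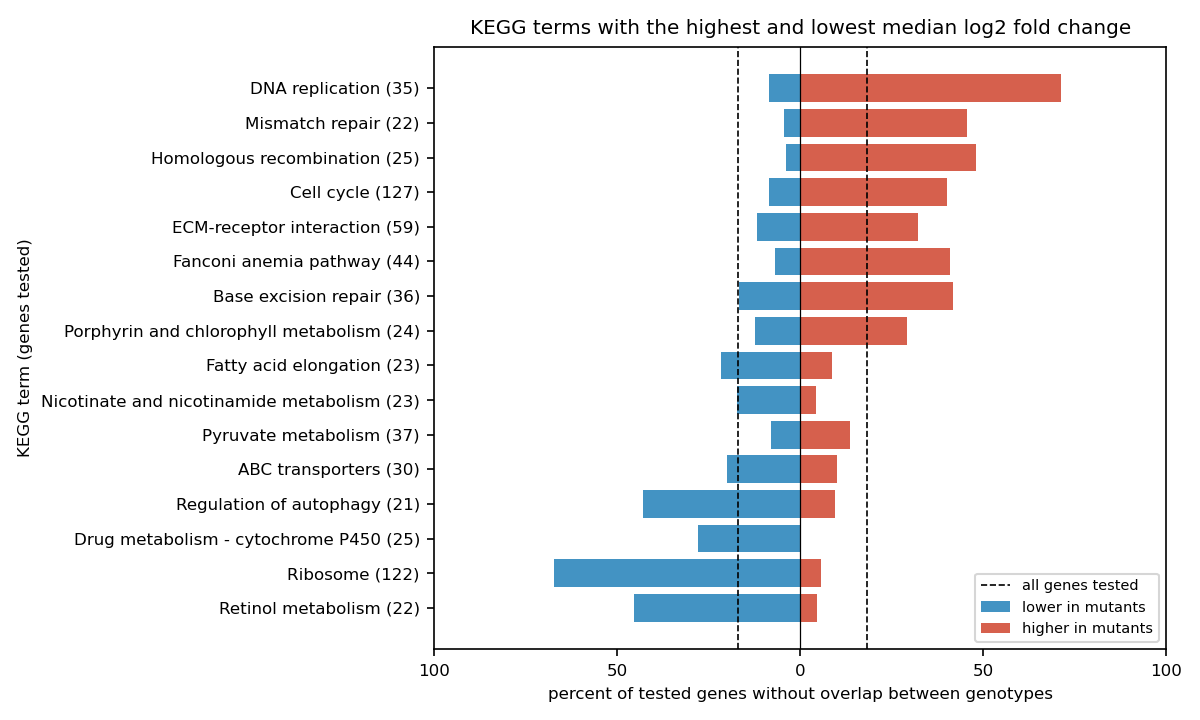
Percent of the tested genes of each KEGG term (x axis) that were lower (left bars) or higher (right bars) in mutants without overlap, for the 8 terms with the highest and the 8 with the lowest median, with the number of tested genes in brackets. Dashed lines mark all genes, at 17.1% lower and 18.2% higher; DNA replication reaches 71.4% higher and Ribosome 67.2% lower.

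Extracellular matrix families leaned to the higher side. The study reported induced matrix genes from these same libraries and labelled members such as *fn1b* and *elnb* in its figures. The direction of these families is thus not independent of that report. Matricellular proteins, which signal to cells from the matrix, had 11 of 26 higher and 3 lower and a median of 0.47. Of 32 collagens 15 were higher and 4 lower (median 0.25), of 15 laminins, nidogens and perlecan 7 were higher and 1 lower (median 0.27), and of 26 fibronectin, elastin, fibrillin and cross-linking genes 10 were higher and 3 lower (median 0.28). *thbs1a*, a thrombospondin that activates TGF-β, had 8361 and 6031 normalized counts in mutants and 3017 and 3282 in wild type. *postnb*, encoding periostin, had 12933 and 13581 against 6942 and 8484. *cilp2* of cartilage matrix, labelled in the study's figures, had 760 and 1401 against 159 and 159. Basement membrane genes were among the higher ones, with 3628 and 3506 normalized counts of *col4a2* in mutants and 2003 and 2297 in wild type, 3037 and 3141 of the nidogen *nid1b* against 1701 and 1898, and 3202 and 3493 of the laminin *lama5* against 2229 and 1681. *col18a1a*, which gives rise to endostatin, had 1233 and 1197 against 570 and 742. The fibrillar collagen *col1a1b*, which had the most counts of its family, had 26071 and 28002 in mutants and 17734 and 19501 in wild type.

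The same families also held members in the other direction. The lower members included *COMP*, with 59 and 79 normalized counts in mutants and 139 and 102 in wild type, and *col6a4a*, with 1015 and 1907 against 1987 and 3040. The provisional matrix gene *fn1b* was far lower, at 11119 and 22405 in mutants and 43357 and 53796 in wild type, while its paralogue *fn1a* had 24708 and 19449 against 13922 and 17190. The paralogues thus went in opposite directions in both mutant libraries. *vwf*, encoding von Willebrand factor of endothelium and thrombocytes, had 3452 and 4206 in mutants and 6504 and 8891 in wild type. It was the gene with the smallest unadjusted p on the lower side of the KEGG term ECM-receptor interaction, in which 19 of 59 genes were higher and 7 lower (median 0.27, and 0.11 without mutant library 1).

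Enzymes that modify collagen had 11 of 29 higher and 3 lower and a median of 0.24, which was 0.09 without mutant library 1. The prolyl hydroxylase gene *p4ha1b* had 1276 and 934 normalized counts in mutants and 662 and 547 in wild type, and the collagen chaperone gene *serpinh1b* had 681 and 458 against 210 and 343. Small leucine-rich proteoglycans and hyalectans had 5 of 14 higher and 2 lower (median 0.40). The aggrecan gene *acana* had 123 and 136 against 59 and 72, while the brevican gene *bcan* had 6 and 633 in mutants and 1038 and 1279 in wild type, so that most of its difference lay in mutant library 1. Its log2 fold change was -4.11, and -0.86 without that library. *elnb*, encoding elastin, was higher in both but unequally so, with 814 and 2854 against 431 and 184. Matrix proteases and their inhibitors showed no lean to the higher side, with 10 of 61 higher and 17 lower (median -0.09). Without mutant library 1 the collagen median was 0.47, that of matricellular proteins 0.43 and that of laminins 0.33. Without mutant library 2 they were 0.14, 0.55 and 0.18. The collagen level was -0.06 and 0.28 in mutants and -0.24 and -0.17 in wild type, so mutant library 2 set most of its height.

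Contractile genes of smooth muscle and myofibroblasts had 11 of 26 higher and 3 lower, 6 of them higher at an unadjusted p under 0.05, and a median of 0.41, which was 0.31 without mutant library 1 and 0.26 among genes with a mean of at least 50. The smooth muscle myosin *myh11a* had 2530 and 1620 normalized counts in mutants and 965 and 1151 in wild type, and the actin nucleator *lmod1b* had 298 and 194 against 132 and 119. *tpm4b*, a tropomyosin, had 435 and 494 against 292 and 174. The calponin-like gene *tagln* did not share the direction, with 2094 and 2082 in mutants and 2280 and 2338 in wild type. The tropomyosin gene *tpm4a*, a relative of *tpm4b* and also a sarcomere gene in zebrafish heart, had 61068 and 92378 against 115415 and 102324. Markers of epicardium and fibroblasts summed to 66302 and 72100 in mutants and 42393 and 50061 in wild type. Such a sum rests mostly on the most abundant markers. Of the 12 tested, 6 were higher and 2 lower without overlap (median 0.53), and the lowest log2 fold change was -1.15. The epicardial transcription factor gene *tcf21* had 253 and 412 against 146 and 231, and *tbx18* had 463 and 617 against 343 and 384, but the fibroblast receptor gene *pdgfra* had 445 and 752 against 628 and 760. The part of these markers in the matrix and contractile values was not tested.

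Integrins, the cell receptors for matrix, had 9 of 29 higher and 1 lower and a median of 0.33, which was 0.10 without mutant library 1. *itga8*, a receptor of mesenchymal cells, had 51 and 83 normalized counts in mutants and 13 and 14 in wild type, and the leukocyte integrin *itgam* had 365 and 369 against 238 and 195. *itga5*, the fibronectin receptor subunit with the most counts, overlapped at 3471 and 3045 in mutants and 3761 and 3434 in wild type. Focal adhesion genes had 9 of 35 higher and 3 lower (median 0.21, and 0.09 without mutant library 1).

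**Figure D4:**
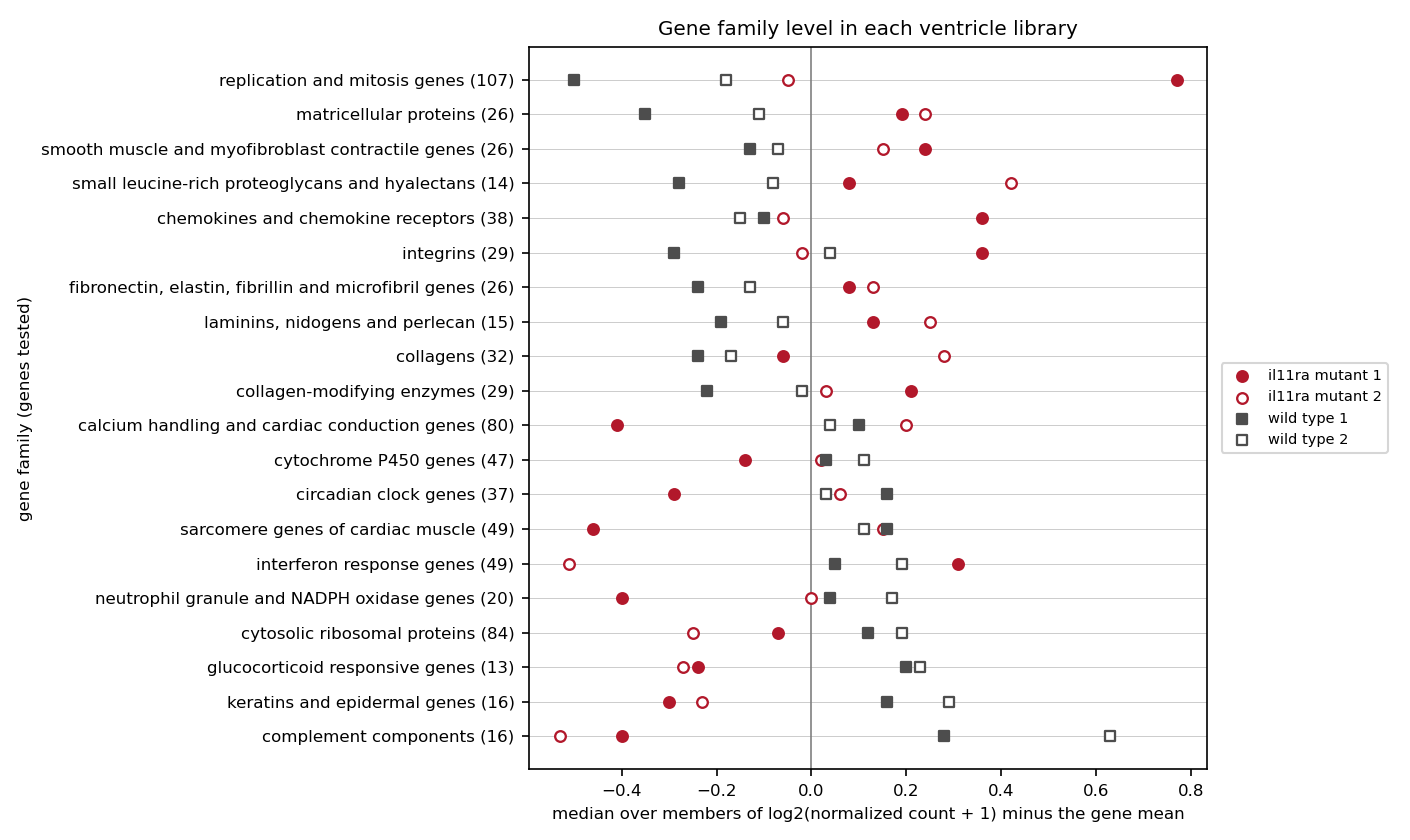
Level of the 10 gene families with the highest and the 10 with the lowest median log2 fold change in each ventricle library, as the median over members of log2(normalized count + 1) minus the gene's mean over the 4 libraries (x axis), with the number of tested genes in brackets. Circles are mutant and squares wild-type libraries; complement, keratin, glucocorticoid responsive and ribosomal protein families sit to the left in both mutant libraries, while sarcomere and calcium handling families sit to the left in mutant library 1 alone, at -0.46 and -0.41.

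Genes of heart muscle did not follow genotype. The 49 tested sarcomere genes had 10 lower and 3 higher and a median of -0.26, which was 0.03 without mutant library 1. The library levels were -0.46 and 0.15 in mutants and 0.16 and 0.11 in wild type, so only mutant library 1 was low. The ventricular myosin gene *myh7l* had 262389 and 518005 normalized counts in mutants and 434084 and 324716 in wild type, and the calcium pump gene *atp2a2a* had 28725 and 66742 against 60498 and 41622. Individual genes were nevertheless without overlap. The troponin gene *tnni1c* had 47 and 67 in mutants and 94 and 136 in wild type, and the giant scaffold gene *obscna* had 68 and 82 against 41 and 37. Among 80 calcium handling and conduction genes, 17 were lower and 13 higher (median -0.16, and 0.12 without mutant library 1), including the calcium channel subunit *cacna1aa*, with 56 and 72 against 156 and 144, and the release channel *ryr1a*, with 50 and 34 against 14 and 8. Cardiac transcription factor and natriuretic peptide genes together had 11 of 39 higher and 8 lower (median 0.01). The share of higher genes, 28.2%, was above the 18.2% of all genes. At an unadjusted p under 0.05 in the limma fit, 5 were higher and 2 lower. Of the 39, the natriuretic peptide genes *nppa* and *nppb*, markers of stretched or stressed myocardium, were named with their values known. They are among the lower members, with 17485 and 24384 normalized counts of *nppa* in mutants against 28089 and 39888. *nppb* had 4592 and 3682 against 5512 and 7229.

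Energy metabolism went with the same library. Of 96 nuclear-encoded oxidative phosphorylation subunits 5 were lower and 2 higher, with library levels of -0.28 and 0.23 in mutants and 0.09 and -0.05 in wild type. Tricarboxylic acid cycle enzymes had 3 of 33 lower and 1 higher, fatty acid oxidation enzymes 1 of 35 lower and 3 higher, and glycolysis and gluconeogenesis enzymes 7 of 47 lower and 8 higher. All these shares were below those of all genes, and the mutant libraries lay on opposite sides of the wild-type ones in the first family, where mutant library 2 alone was above both wild-type libraries in 59 of the 96 oxidative phosphorylation genes. The 23 tested genes of the mitochondrial chromosome had 2 lower and 0 higher. *mdh2*, encoding mitochondrial malate dehydrogenase, had 16177 and 30194 normalized counts in mutants and 33061 and 24673 in wild type. The KEGG term Pyruvate metabolism, to which it belongs, had a median of -0.11, which was 0.21 without mutant library 1. Cholesterol synthesis and uptake genes had 9 of 28 higher and 2 lower (median 0.17).

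Keratins and other epidermal genes were lower, with 10 of 16 lower and 2 higher and a median of -0.54, which was -0.49 without mutant library 1. *krt15* had 2694 and 4228 normalized counts in mutants and 6808 and 8133 in wild type, and *krt91* had 613 and 725 against 1106 and 1027. *krt8*, a keratin of simple epithelia, had 28521 and 25542 against 35256 and 40356. *KRT71* went the other way, with 154 and 250 against 94 and 111. Of the 4 tested markers of epidermis, 2 were lower and 0 higher without overlap, and the median was -0.71. Their level was -0.45 and -0.34 in mutants and 0.29 and 0.30 in wild type. These markers summed to 1944 and 2700 normalized counts in mutants and 3196 and 3746 in wild type. Most of that was the keratin gene *krt4*, with 1838 and 2509 against 2988 and 3566, so this marker list is not independent of the keratins. The epidermal transcription factor gene *tp63*, a member of that marker list, overlapped at 80 and 171 in mutants and 137 and 147 in wild type. The part of epidermal tissue in the keratin values was not tested.

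Several metabolic terms were at the low end of the KEGG list. Retinol metabolism had 10 of 22 lower and 1 higher and a median of -0.35, which was -0.20 without mutant library 1. Retinoic acid signaling is among the groups that the study drew from these libraries, so the direction of this term is not independent evidence. The members with the smallest unadjusted p were *aox6*, an aldehyde oxidase gene, with 176 and 253 normalized counts in mutants and 366 and 328 in wild type, *aldh1a2*, labelled in the study's figures, and the retinal reductase gene *dhrs3b*, with 74 and 141 against 167 and 232. *RETSAT*, a retinol saturase, was the single higher member, with 49 and 61 against 41 and 31. Drug metabolism by cytochrome P450 had 7 of 25 lower and 0 higher (median -0.21, and -0.04 without mutant library 1), with 178 and 197 normalized counts of the glutathione transferase gene *gstt1b* against 284 and 271. The cytochrome P450 genes themselves had 14 of 47 lower and 5 higher (median -0.19). *cyp3c1* had 447 and 518 in mutants and 725 and 1042 in wild type, whereas *cyp1b1* had 397 and 353 against 236 and 219.

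Regulation of autophagy had 9 of 21 lower and 2 higher (median -0.18, and -0.08 without mutant library 1), including the initiating kinase genes *ulk2*, with 299 and 445 normalized counts in mutants and 846 and 512 in wild type, and *ulk1b*, with 113 and 105 against 150 and 162. The broader family of autophagy and lysosome hydrolase genes had 20 of 60 lower and 5 higher (median -0.09). The larger KEGG term Lysosome, which is not at the low end, did not share this direction. It had 12 of 116 lower and 18 higher (median 0.09, and -0.06 without mutant library 1). Its share of lower genes, 10.3%, was below the 17.1% of all genes. The other terms at the low end were near all genes in their share of lower genes and below them in their share of higher genes. They were ABC transporters (6 of 30 lower and 3 higher), Nicotinate and nicotinamide metabolism (4 of 23 lower and 1 higher, median -0.10, and -0.01 without mutant library 1) and Fatty acid elongation (5 of 23 lower and 2 higher). At the high end, Porphyrin and chlorophyll metabolism had 7 of 24 higher and 3 lower (median 0.17). Its heme synthesis gene *cpox* had 492 and 443 against 399 and 355, but *alas1*, the rate-limiting enzyme of heme synthesis outside red cells, had 3315 and 4475 in mutants and 4588 and 5854 in wild type.

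Immune families split between the mutant libraries. Interferon response genes had 14 of 49 lower and 2 higher (median -0.27), yet their level was 0.31 and -0.51 in mutants and 0.05 and 0.19 in wild type. Mutant library 2 alone lay below both wild-type libraries in 42 of the 49 genes, and the list median was 0.07 without it and -0.54 without mutant library 1. *stat1a*, which carries the interferon signal, was lower in both, with 1277 and 1251 normalized counts in mutants and 1767 and 1773 in wild type, and so was *ifit16*, with 74 and 43 against 110 and 152. Chemokines and their receptors had 8 of 38 higher and 6 lower and a median of 0.34, which was 0.00 without mutant library 1. *cxcl18b*, a neutrophil-attracting chemokine, had 107 and 106 in mutants and 184 and 392 in wild type, and *ccr12a* had 297 and 227 against 149 and 172. Neutrophil granule and oxidase genes had 5 of 20 lower and 1 higher (median -0.32, and -0.17 without mutant library 1). The transcription factor gene *cebpd* had 854 and 1853 against 3380 and 4412, while the protease gene *mmp9* had 3728 and 585 against 213 and 573. Interleukins, tumor necrosis factors and their receptors had 12 of 56 lower and 7 higher (median -0.04), and Toll-like receptor and NF-κB genes had 7 of 49 lower and 9 higher (median 0.04). Coagulation genes had 4 of 25 lower and 2 higher (median 0.01), and class I and class II major histocompatibility genes had 5 of 29 lower and 2 higher (median -0.08).

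Of the signaling families, TGF-β, Wnt and Notch genes held a larger share of higher genes than the 18.2% of all genes, with medians close to 0. The TGF-β, activin and BMP family had 25 of 68 higher and 8 lower, 9 of them higher at an unadjusted p under 0.05, and a median of 0.09, which was 0.12 without mutant library 1. The study also reported TGF-β pathway genes as induced in these libraries, so the direction of this family is not independent evidence. Wnt pathway genes had 19 of 57 higher and 7 lower (median 0.11), and the KEGG Wnt term 40 of 137 higher and 11 lower (median 0.10). Notch genes had 11 of 36 higher and 7 lower (median 0.03), and immediate early transcription factors 18 of 59 higher and 14 lower (median 0.04). Their shares of lower genes, 19.4% and 23.7%, were also above the 17.1% of all genes. The FGF, EGF, PDGF and VEGF family had 19 of 91 higher and 16 lower (median 0.05), near all genes on both sides. Retinoid metabolism and receptor genes had 14 of 45 lower and 4 higher (median -0.07). Hedgehog ligands, receptors and Gli factors had 5 of 18 lower and 0 higher (median -0.04), while the KEGG Hedgehog term, which is larger and lists other genes, had 14 of 46 higher and 4 lower (median 0.12). Proteasome subunits had 7 of 54 higher and 0 lower (median 0.15, and -0.06 without mutant library 1). Heat shock chaperones (16 of 96 higher and 14 lower, median 0.00) and hypoxia responsive genes (5 of 34 higher and 7 lower, median 0.05) did not lean to either side.

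Long intergenic noncoding RNAs had 68 of 314 lower and 43 higher and a median of -0.11, which was -0.07 without mutant library 1. Transcripts annotated as processed transcripts had 57 of 296 lower and 29 higher (median -0.11). The 16560 protein-coding genes had 2804 lower and 3075 higher (median 0.01).

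Of the 36 lists with the highest and lowest medians, 33 kept the sign of their median without mutant library 1. The 18 higher lists all stayed at or above 0 (chemokines and their receptors at 0.00), although those of replication and repair came closer to it. The 3 that changed sign were sarcomere genes, calcium handling genes and Pyruvate metabolism. Without mutant library 2, 35 kept their sign, and without either wild-type library all 36 did. The lists were picked for their medians in these same libraries, and some share genes. Most signs would be kept for that reason alone, so these counts are no independent support. Complement components, keratins, glucocorticoid responsive genes and cytosolic ribosomal proteins were, together with interferon response genes, the families with a median at or below -0.41 without mutant library 1. With all libraries the ribosomal proteins were at -0.32 and the interferon response genes at -0.27.

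**Figure D5:**
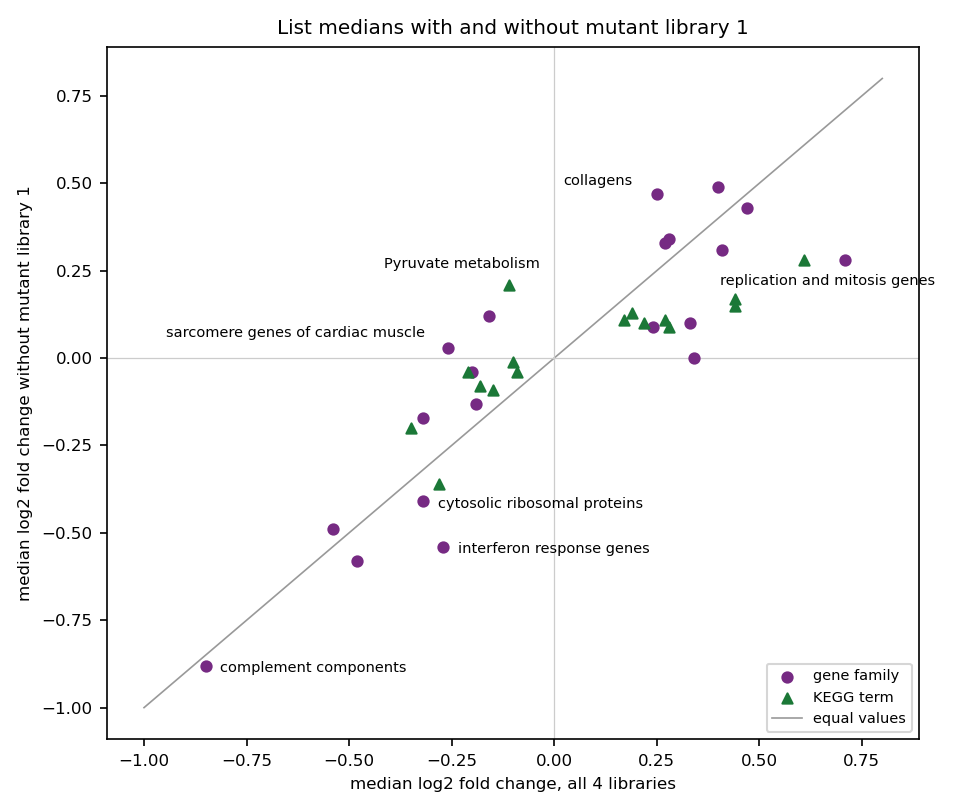
Median log2 fold change, mutant over wild type, of the 20 gene families (circles) and 16 KEGG terms (triangles) with the highest and lowest medians, from all 4 libraries (x axis) and without mutant library 1 (y axis). The line marks equal values; replication and mitosis genes lie below it at 0.71 and 0.28, and complement components lie close to it at -0.85 and -0.88.

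The fin libraries, 3 of *il11ra* mutants and 3 of wild type with 1 fish each, were taken 24 hours after amputation. They were normalized apart from the ventricles, so the medians are set side by side without a test. The median log2 fold change of replication and mitosis genes was 0.71 in ventricles and -0.82 in fins, over 107 genes in each. Collagens had 0.25 in ventricles and -0.50 in fins, and collagen-modifying enzymes 0.24 and -0.76. Complement components had -0.85 in ventricles and 0.88 in fins, glucocorticoid responsive genes -0.48 and 0.81, and interferon response genes -0.27 and 0.76. The ventricle median of interferon response genes was 0.07 without mutant library 2, so its direction there rests on that library. That of replication and mitosis genes was 0.28 without mutant library 1. Fin medians cover only members that reached the minimum mean there. These were 14 of 16 complement genes and 12 of 13 glucocorticoid responsive genes. Complement genes were split in fins, where *c7a* had a log2 fold change of -1.17 and the *c6* entry with more counts -1.24. The other *c6* entry had 1.53 and *C4B* 0.94 there. Cytosolic ribosomal proteins had -0.32 in ventricles and 0.10 in fins. *klf9* and *fkbp5*, far lower in mutant ventricles, had log2 fold changes of 3.76 and 2.40 in fins. The contractile genes of smooth muscle had medians of the same sign in both, 0.41 in ventricles and 0.14 in fins.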

How the data were processed

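RNA-seq was analysed for 4 ventricle libraries (2 *il11ra* mutant, 2 wild-type, 96 hpci). Per the submitters' processing notes, tools included Trimmomatic 0.39, STAR 2.7.3a, featureCounts 1.6.5 and DESeq2 1.26, with build GRCz11. The deposited signal of a gene is its read count after the authors divided by a library size factor and rounded. Read strand in counting is not given in the sources used here, so antisense neighbours may share reads. Whole reads were not recovered, so intervals for counting error are not given.

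Genes with a mean of at least 10 were fitted in limma 3.58.1 (R 4.3.3) on log2(normalized count + 1), mutant over wild type, with a mean-variance trend and Benjamini-Hochberg adjustment over all 17411 genes. The pseudocount of 1 understates fold changes of low genes. On simulated data for this comparison, 95% of genes changed 2 on the log2 scale and 54% of those changed by 1 were called. The simulation gave each gene the median spread of genes of like level, equal in every library. It held no outlying library such as mutant library 1, so these shares do not give the power of the fit on the real libraries. Nothing says that libraries of a genotype came from separate clutches, so p-values measure the spread between these libraries.

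Lists were 115 KEGG terms with at least 20 tested genes, of the table's own annotation (4070 tested genes have a term), 57 gene families matched by symbol, from which 81 symbols of other families were removed, 12 marker lists, biotypes and distances from *il11ra*. They are described by counts and medians without a test. Members and lists were chosen with earlier results of these data known. Named genes were *il11ra*, the 12 higher and 12 lower genes of smallest unadjusted p (mean of at least 50, no overlap, a proper symbol, not labelled in the study's figures) and, per described list, up to 3 members in the direction of its median, 1 in the other and the member of highest mean. Further genes of a list were named with their values known. Alternatives were pseudocounts, filters, scalings, moderation, vooma weights, a replicate block and each library left out. Promoter sequences were not used here. Python 3.11.15, pandas 2.3.3 and matplotlib 3.10.9 served for tables and figures.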

Additional observations from a re-analysis of the deposited data

How the results depend on the processing

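No gene passed an adjusted p of 0.05 under any of the 13 other settings or the crossed pairing. Over the runs that left out 1 library, the genes at an unadjusted p under 0.05 numbered 231 to 1237 lower and 213 to 1331 higher. The ventricle genes without overlap between genotypes, lower in mutants, numbered 4948 to 6456, and the ventricle genes without overlap between genotypes, higher in mutants, 5324 to 6845, since 3 libraries overlap less readily. Without a filter on low values 842 genes were higher at an unadjusted p under 0.05. The numbers 1 and 2 do not establish a pairing, since the deviations of same-numbered libraries correlated at -0.193: the replicate block gave 526 lower and 413 higher genes, and the crossed pairing, added after seeing the data, 937 and 897.

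Complement components had a median of -0.57 with a pseudocount of 10, and quantile normalization gave -0.42 for glucocorticoid responsive genes and -0.19 for cytosolic ribosomal proteins. A minimum mean of 50 gave 0.26 for contractile genes of smooth muscle and 0.66 for matricellular proteins. With 1 library left out, the medians ran between -1.08 and -0.68 for complement components, -0.58 and -0.38 for glucocorticoid responsive genes, -0.59 and 0.03 for sarcomere genes, 0.14 and 0.47 for collagens, 0.27 and 0.43 for contractile genes of smooth muscle, 0.33 and 0.56 for matricellular proteins, and 0.28 and 1.16 for replication and mitosis genes. Lists near 0 changed sign in such runs, with ranges of -0.35 to 0.21 for Pyruvate metabolism, -0.20 to 0.19 for class I and II histocompatibility genes, -0.12 to 0.18 for coagulation genes, -0.26 to 0.28 for fatty acid oxidation, -0.25 to 0.23 for glycolysis, -0.27 to 0.12 for the gp130 family and -0.24 to 0.26 for interleukins. The cause of these moves was not tested.

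The log2 fold changes of abundant genes that changed sign when 1 library was left out ran from -0.57 to 0.53 for *gstr*, -0.92 to 0.22 for *abcc9*, -0.82 to 0.08 for *mdh2*, -0.01 to 0.34 for *nnt*, -0.31 to 0.47 for *hadhaa*, -0.04 to 0.20 for *ywhaba*, -0.52 to 0.46 for *myh7l*, -0.44 to 0.04 for *cry1ba*, -0.63 to 0.09 for *cyp1c1*, -0.80 to 0.41 for *atp2a2a* and -0.46 to 0.28 for *lamb2*. Quantile normalization gave 0.10 for *gstr* and 0.01 for *lamb2*. With 2 libraries a genotype, the smallest permutation p of a single gene is 0.33.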
